A study of Mus musculus with 8 samples.

Results

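The genes described here encode heat shock proteins, the molecular chaperones of the HSP70, HSP90 and HSP60 families with their cochaperones. The set holds 10 genes chosen by name: Hspa1a, Hspa1b, Hspa8, Hspa5, Hsph1, Dnajb1, Hsp90aa1, Hsp90ab1, Hspd1 and Hspe1. Every probe set that the array annotation pairs with 1 of these genes alone was taken. This gave 20 probe sets for 9 of the 10 genes, out of 20380 probe sets that list a single gene symbol and 12393 genes. Hsp90ab1 was not analysed here. Hspa8 had 4 probe sets, Hspa1b and Hsp90aa1 had 3 each, Hspa5, Hsph1, Hspe1 and Dnajb1 had 2 each, and Hspa1a and Hspd1 had 1 each.

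The cells were T cells of the spleen, sorted with magnetic beads of a pan-T cell kit, from Gfi1-knockout C57Bl/6 mice and from wild-type C57Bl/6 mice. Gfi1 is a zinc finger repressor of blood cell genes, and the sources used here do not give the construction of the knockout allele. For each genotype there was 1 Affymetrix MOE430A_2.0 array of cells taken before culture (0 h) and 1 each after 4, 8 and 24 h with antibodies to CD3 and CD28 at 2 µg/ml, 8 arrays in all. No array holds cells kept in culture without the antibodies, so the antibodies and the culture itself cannot be told apart as the source of a change. The labels give 1 source number for each genotype, so genotype and source cannot be told apart either, and differences between genotypes are given by size with no p-value.

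HSP70 proteins bind stretches of unfolded protein in cycles of ATP hydrolysis that J-domain (HSP40) cochaperones start and that nucleotide exchange factors such as HSP110 end. HSP90 takes over later folding steps of kinases and receptors, HSP60 with its HSP10 lid folds proteins inside mitochondria, and BiP, the product of Hspa5, is the HSP70 of the endoplasmic reticulum. Heat and other stresses raise the inducible members through heat shock factor 1, which binds repeats of the letters GAA and TTC in their promoters, and activated lymphocytes are known to raise several of them as protein synthesis increases.

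The signals are linear MAS5 intensities, and values under a floor of 141.88 were set to the floor before log2 was taken. Between 56.5% and 61.5% of probe sets lay above the floor on each array. All 20 heat shock protein probe sets were above it on at least 2 arrays and were tested, and 19 were above it on all 8. The Gfi1 probe set does not check the labels, so the text names each array knockout-labelled or wild-type-labelled. Markers of T cells and of other blood cells moved with genotype and with time. The summed signal of 13 T cell markers ran from 25519 to 62745 on knockout-labelled arrays, against 67654 to 96110 on wild-type-labelled arrays, and their median log2 difference was -1.69, -1.67, -1.64 and -0.25 at 0, 4, 8 and 24 h. The sum of 13 granulocyte markers ran from 6688 to 177056 on knockout-labelled arrays, against 1006 to 16918 on wild-type-labelled arrays, with 12 of the 13 at the floor on the wild-type-labelled 24 h array. The sum of 13 monocyte markers ran from 19410.2 to 56139 on knockout-labelled arrays, against 1490.4 to 9010 on wild-type-labelled arrays. From 0 to 24 h the granulocyte sum fell from 154918.5 to 6687.9 on knockout-labelled arrays and from 16918.4 to 1005.8 on wild-type-labelled arrays. The monocyte sum fell from 37027.3 to 19410.2 and from 9009.7 to 1490.4 on these arrays. The T cell sum rose from 32015.2 to 62744.9 on knockout-labelled arrays and fell from 96110.1 to 69284.5 on wild-type-labelled arrays. The B cell factors Pax5 and Ebf1, the red cell genes Alas2 and Epb42 and the platelet gene Gp9 were at the floor on all 8 arrays. Other markers were not, since 6 of 9 for B cells, 4 of 6 for red cells and 3 of 5 for platelets passed the filter. Red cell sums of 19939.5 (knockout-labelled) and 17573.9 (wild-type-labelled) before culture had dropped to 1421.0 and 1872.7 by 4 h. B cell sums declined over 24 h, from 4040.0 to 844.9 (knockout-labelled) and from 5618.0 to 1158.9 (wild-type-labelled). The part of these cells in the results below was not tested, and in such mixed RNA a smaller share of a cell type and less RNA per cell cannot be told apart.

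The comparison of each time with 0 h asks which heat shock protein genes changed after stimulation in both genotypes. Hspa1a and Hspa1b, the stress-inducible HSP70 genes, had fallen at 24 h, about 4-fold on the mean of both genotypes. No other member passed the test at any time. In limma the mean change of the genotypes was tested against their disagreement, so the p-values measure the spread between these samples only, and a call needed a Benjamini-Hochberg adjusted p under 0.05 over all 15062 tested probe sets and at least a 2-fold change. At 24 h it called 3 of the 20 member probe sets lower, where 2.2% of all tested probe sets were called lower, and 0 higher, where the background was 1.24%. By gene these were 2 of 9, beside 2.48% of the 8457 tested genes.

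At 4 h limma called 0 of the 20 probe sets higher, against a background of 0.631%, and 0 lower, against 0.465%. At 8 h it again called 0 higher and 0 lower, where 0.956% and 0.989% of all probe sets were called. At an unadjusted p under 0.05, 1 member probe set was higher and 6 were lower at 4 h, where 13.6% of all probe sets passed in either direction. At 8 h 0 were higher and 2 lower on that measure, where 19.8% of all passed, and at 24 h 1 was higher and 7 were lower, where 21.3% of all passed. The median change of the members was -0.38 on the log2 scale at 4 h, 0.06 at 8 h and -0.08 at 24 h, beside -0.09, -0.10 and -0.07 over all tested probe sets. After quantile normalization the members' medians were -0.48, 0.01 and -0.16, and after division of each array by its median they were -0.20, 0.32 and 0.22, beside 0.05, 0.10 and 0.15 over all, so the sign at 24 h depended on the scaling.

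**Figure D1:**
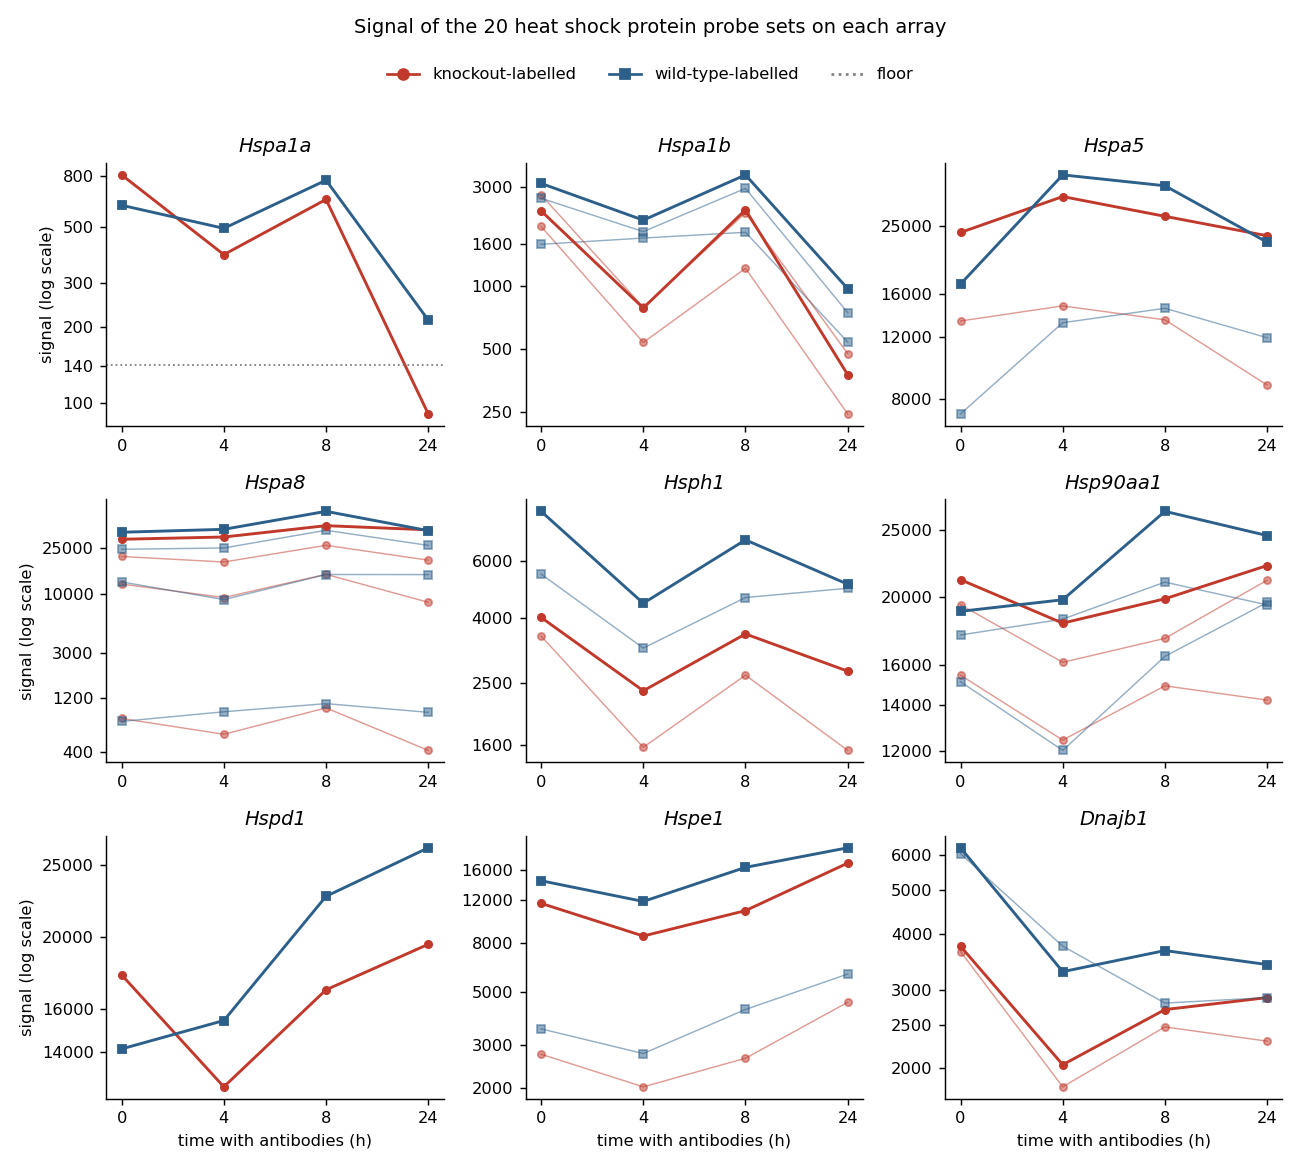
Signal of the 20 heat shock protein probe sets (vertical axes, log scale, 1 panel per gene) against time with antibodies (0, 4, 8 and 24 h, evenly spaced), with knockout-labelled arrays as red circles and wild-type-labelled arrays as blue squares. Strong lines are the probe set with the highest mean of each gene, pale lines its other probe sets, and the dotted line is the floor. Hspa1a and Hspa1b are lowest at 24 h in both genotypes, Hsph1 is lower on the knockout-labelled array at every time, and Hsp90aa1 stays within a 1.45-fold range for its strongest probe set.

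Hspa1a and Hspa1b lie close together in the major histocompatibility region and encode nearly the same cytosolic HSP70 protein, made in quantity only under stress. Their promoters are nearly the same too. The promoter windows, from 250 bases before to 50 bases after the start of transcription, were taken from RefSeq (build GRCm38.p6), at chr17:34972107-34972406 for Hspa1a and chr17:34959189-34959488 for Hspa1b, both on the minus strand. They are printed because these are the genes that were called, with the match to a pair of inverted heat shock units (GAANNTTC) in capitals.
Hspa1a: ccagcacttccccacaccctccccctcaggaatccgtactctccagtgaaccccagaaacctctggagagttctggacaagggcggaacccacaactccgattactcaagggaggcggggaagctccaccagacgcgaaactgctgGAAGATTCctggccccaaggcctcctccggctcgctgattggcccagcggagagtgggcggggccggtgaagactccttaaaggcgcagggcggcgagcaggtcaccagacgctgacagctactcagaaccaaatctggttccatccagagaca
Hspa1b: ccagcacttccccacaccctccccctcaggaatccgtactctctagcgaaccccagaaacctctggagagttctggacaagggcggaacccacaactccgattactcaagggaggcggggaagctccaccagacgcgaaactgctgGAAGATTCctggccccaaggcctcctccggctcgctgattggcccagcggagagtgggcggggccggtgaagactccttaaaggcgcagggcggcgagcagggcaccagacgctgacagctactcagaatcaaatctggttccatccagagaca
The windows differ at 4 of 300 bases and are 98.7% identical. Counted from 1 at the 5′ end of the window, with the base of Hspa1a first, the substitutions are C44T, T47C, T249G and C276T, none of them inside the capitals. The motif was searched on both strands, and GAANNTTC was found in 7.86% of 32851 promoter windows in the RefSeq table. Probe sets of such similar genes may take up RNA of either, so which of the 2 genes a signal comes from is uncertain.

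Hspa1b probe set 1452318_a_at had signals of 2295.5, 785, 2321.5 and 376 at 0, 4, 8 and 24 h on knockout-labelled arrays, against 3108, 2072, 3415 and 972 on wild-type-labelled arrays. The 24 h array was the lowest of each genotype, and the knockout-labelled array was lower at each time. Its change from 0 to 24 h was -2.61 on the log2 scale in knockout-labelled and -1.68 in wild-type-labelled cells, a mean of -2.14 ± 0.33 (SE), or 4.42-fold lower (limma adjusted p = 0.0247, lower in both genotypes). Probe set 1427127_x_at, whose suffix marks probes that may match other transcripts, had 2734, 792, 2243.5 and 474 on knockout-labelled arrays, against 2638, 1825, 2941 and 746 on wild-type-labelled arrays. The 24 h array was again the lowest of each genotype, and the groups overlapped. It fell by 2.17 ± 0.33 (SE) on the log2 scale at 24 h (limma adjusted p = 0.0247).

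The third Hspa1b probe set, 1427126_at, had 1933.5, 537, 1217 and 244 on knockout-labelled arrays, against 1587, 1699.8, 1812 and 539 on wild-type-labelled arrays. It too was lowest at 24 h in both genotypes, and the groups overlapped, but its change of -2.27 ± 0.47 (SE) missed the threshold (limma adjusted p = 0.0519). The single Hspa1a probe set, 1452388_at, had 806, 389, 644 and 90.5 on knockout-labelled arrays, against 611, 494, 768 and 214 on wild-type-labelled arrays. The lowest of these, on the knockout-labelled 24 h array, was under the floor, so the change there is a bound. Hspa1a fell at 24 h, with a change of -2.51 or lower in knockout-labelled and of -1.52 in wild-type-labelled cells on the log2 scale, and a mean of -2.01 ± 0.36 (SE) in the fit (limma adjusted p = 0.036).

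Leaving out any array except the wild-type-labelled 24 h one ended all 3 of these calls, with limma adjusted p of 0.0736 to 0.163, while the changes stayed between -1.61 and -2.58. Without the filter on low signals the adjusted p was 0.154 to 0.169, without the genotype term it was 0.082 to 0.194, and Hspa1a also missed the threshold after quantile normalization (0.0695), after division of each array by its median (0.0614) and with a floor at the 60th percentile, where its change was -0.55 (0.183).

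The time course of Hspa1b was not even. At 4 h its changes from 0 h were -1.55, -1.79 and -1.85 over the 3 probe sets in knockout-labelled cells, against -0.59, -0.53 and 0.10 in wild-type-labelled cells, and limma gave adjusted p of 0.203 to 0.482 for the mean. By 8 h its signals were again near those at 0 h for 1452318_a_at, with a change of 0.02 in knockout-labelled and 0.14 in wild-type-labelled cells. For 1427127_x_at the 8 h changes were -0.29 and 0.16, and for 1427126_at they were -0.67 and 0.19. The knockout-labelled signals of these probe sets thus stayed below their 0 h values. Hspa1a showed -1.05 and -0.30 at 4 h and -0.32 and 0.33 at 8 h in knockout-labelled and wild-type-labelled cells. Neither gene was called at 4 or 8 h.

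**Figure D2:**
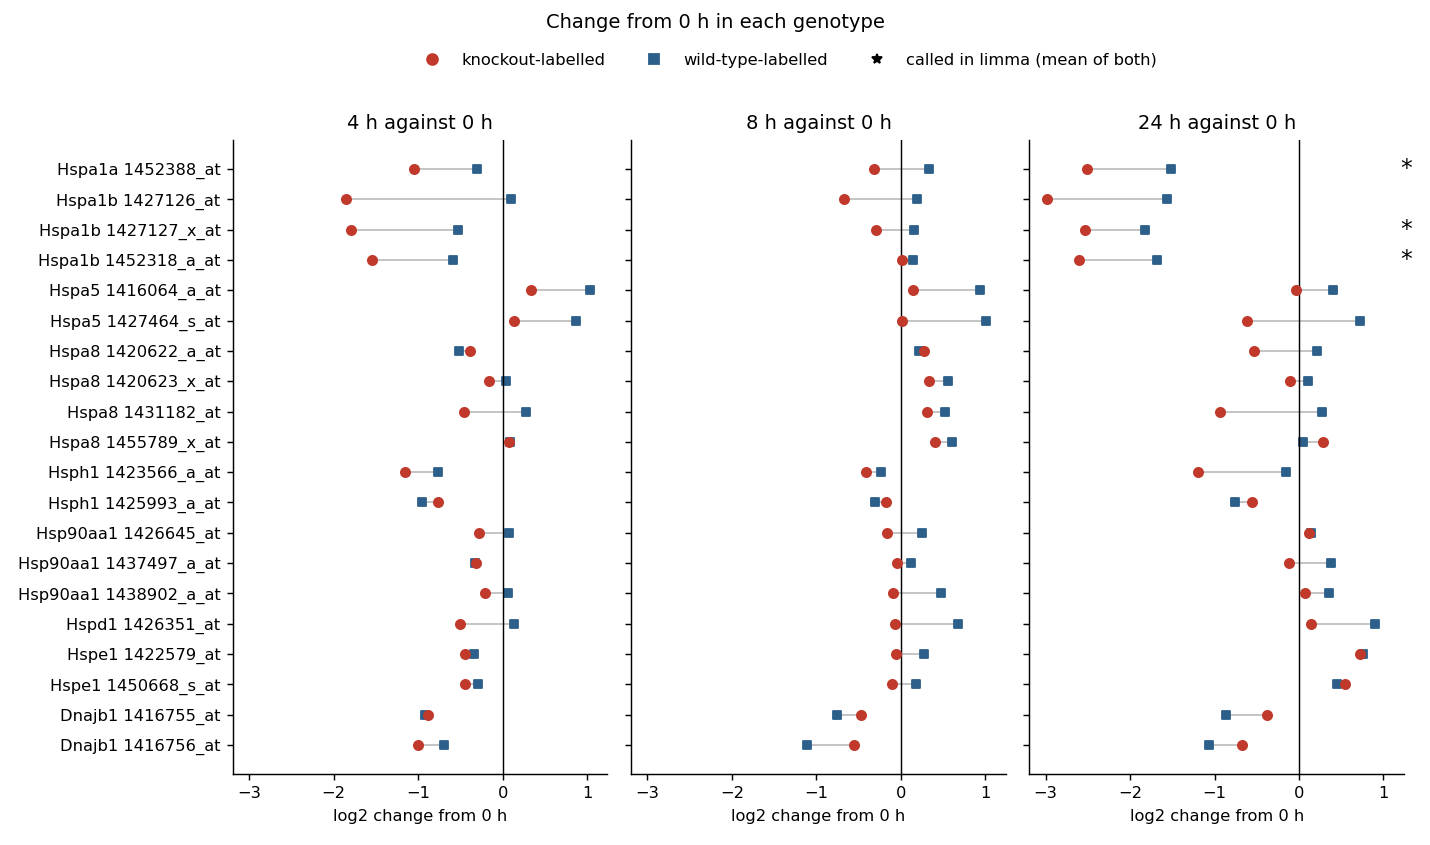
Log2 change from 0 h (horizontal axes) of each heat shock protein probe set (vertical axis) at 4, 8 and 24 h, with knockout-labelled cells as red circles, wild-type-labelled cells as blue squares and a grey line joining the pair. Asterisks mark the 3 probe sets called in limma on the mean of both genotypes, all at 24 h and all of Hspa1a or Hspa1b, with mean changes of -2.01, -2.14 and -2.17.

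Hspa8 encodes HSC70, the HSP70 that cells make at all times. Its probe set with the highest mean, 1455789_x_at, had 30023, 31424, 39531 and 36344 at 0, 4, 8 and 24 h on knockout-labelled arrays, against 34608, 36712, 52842 and 35747 on wild-type-labelled arrays. The 8 h array was the highest of each genotype, all 8 values lay within a 1.76-fold range, and the genotypes overlapped. Its change at 8 h was 0.50 ± 0.24 (SE) on the log2 scale (limma adjusted p = 0.301), and over its 4 probe sets the 8 h change ran from 0.25 to 0.50. Probe set 1431182_at had 796, 578, 987 and 417 on knockout-labelled arrays, against 750.4, 912, 1075 and 902 on wild-type-labelled arrays. Its 24 h value was more than 2-fold lower on the knockout-labelled array, whereas for 1455789_x_at the difference there was 0.02, so the probe sets of Hspa8 disagreed at 24 h.

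Hsph1 encodes HSP105, an HSP110 protein that exchanges nucleotide on HSP70, and both of its probe sets were lower on the knockout-labelled array at every time. Its promoter window is printed because the genotypes did not overlap for 1 of them, from chr5:149636287-149636586 on the minus strand (RefSeq, GRCm38.p6), with matches to inverted pairs of heat shock units (GAANNTTC or TTCNNGAA) in capitals.
Hsph1: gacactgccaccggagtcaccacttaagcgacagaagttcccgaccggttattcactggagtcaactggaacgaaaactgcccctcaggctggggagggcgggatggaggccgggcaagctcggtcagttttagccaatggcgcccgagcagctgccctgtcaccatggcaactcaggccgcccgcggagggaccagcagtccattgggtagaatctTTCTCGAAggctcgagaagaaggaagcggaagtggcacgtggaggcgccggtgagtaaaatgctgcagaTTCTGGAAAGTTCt
The first match (TTCTCGAA) begins 33 bases before the start of transcription, and a run of 3 units (TTCTGGAAAGTTC) begins 36 bases after it. Hsph1 has a second window with another start, not printed, where the same matches begin 54 bases before and 15 bases after that start. A run of 3 units (GAANNTTCNNGAA, on either strand) was found in 0.603% of all promoter windows, and TTCNNGAA in 8.52%. A match is a description of letters, not evidence that the factor binds.

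Probe set 1425993_a_at of Hsph1 had 4004.5, 2360.0, 3554 and 2719 at 0, 4, 8 and 24 h on knockout-labelled arrays, against 8599.9, 4435, 7002 and 5087 on wild-type-labelled arrays. The highest knockout-labelled value was below the lowest wild-type-labelled one, so the genotypes did not overlap. The difference, knockout-labelled minus wild-type-labelled, was -1.10, -0.91, -0.98 and -0.90 on the log2 scale at 0, 4, 8 and 24 h, a mean of -0.97 ± 0.09 (SD over 4 times, which are not replicates of a genotype). Probe set 1423566_a_at had 3500.5, 1570.1, 2641 and 1536 on knockout-labelled arrays, against 5471, 3210.0, 4621 and 4939 on wild-type-labelled arrays. It was also lower on the knockout-labelled array at each time, with differences of -0.64, -1.03, -0.81 and -1.69, although its knockout-labelled 0 h value was above the wild-type-labelled 4 h value. The differences of both probe sets kept their sign at all 4 times after quantile normalization and after division of each array by its median. T cell markers were lower on the same knockout-labelled arrays, with median differences of -1.69, -1.67, -1.64 and -0.25 at 0, 4, 8 and 24 h, and their part in the Hsph1 differences was not tested.

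Within each genotype the 0 h array gave the highest Hsph1 signal and the 4 h array the lowest for 1425993_a_at. The change at 4 h was -0.76 in knockout-labelled and -0.96 in wild-type-labelled cells, a mean of -0.86 ± 0.20 (SE) that missed the threshold (limma adjusted p = 0.129). At 24 h it was -0.66 ± 0.20 (SE, limma adjusted p = 0.126).

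Dnajb1 encodes HSP40, the J-domain partner that loads unfolded protein onto inducible HSP70. Probe set 1416755_at had 3747, 2036.5, 2705 and 2877 on knockout-labelled arrays, against 6223, 3288.5, 3666 and 3411 on wild-type-labelled arrays. Within each genotype the 0 h array was the highest and the 4 h array the lowest, and the knockout-labelled array was lower at each time, with differences of -0.73, -0.69, -0.44 and -0.25 on the log2 scale. Probe set 1416756_at had 3646.5, 1817.5, 2475 and 2299 on knockout-labelled arrays, against 6038, 3750.2, 2797.5 and 2877 on wild-type-labelled arrays. It was lower on the knockout-labelled array at each time as well, with differences of -0.73, -1.05, -0.18 and -0.32, and the genotypes overlapped for both probe sets. The change from 0 h at 4 h was -0.90 ± 0.22 (SE) for 1416755_at (limma adjusted p = 0.156) and -0.85 ± 0.27 (SE) for 1416756_at (limma adjusted p = 0.241). At 8 and 24 h the mean changes of both probe sets ran from -0.62 to -0.87, with adjusted p of 0.136 to 0.199. Of its 2 promoter windows neither held an inverted pair.

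Hsp90aa1 encodes the inducible cytosolic HSP90, HSP90 alpha, and its probe sets had the narrowest ranges of the 20. Probe set 1438902_a_at had 21203, 18357, 19902 and 22222 on knockout-labelled arrays, against 19089.6, 19837, 26596 and 24544 on wild-type-labelled arrays. All 8 values lay within a 1.45-fold range, with the wild-type-labelled 8 h array highest and the knockout-labelled 4 h array lowest, and the genotypes overlapped. Its 2 other probe sets spanned 1.31-fold and 1.63-fold. Over the 3 probe sets the mean change from 0 h ran from -0.32 to 0.22 at 4, 8 and 24 h, with limma adjusted p of 0.602 to 0.958. The sign of its change at 4, 8 and 24 h and of its genotype difference at 4 and 24 h depended on the scaling for at least 1 probe set.

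Hspd1 and Hspe1 encode mitochondrial HSP60 and its HSP10 partner, and lie head to head with a shared promoter. The window of Hspe1, at chr1:55087898-55088197 on the plus strand (RefSeq, GRCm38.p6), shares 285 bases with the second of 2 windows of Hspd1, which is read on the minus strand. It is printed because it serves both genes, with the inverted pairs in capitals.
Hspe1: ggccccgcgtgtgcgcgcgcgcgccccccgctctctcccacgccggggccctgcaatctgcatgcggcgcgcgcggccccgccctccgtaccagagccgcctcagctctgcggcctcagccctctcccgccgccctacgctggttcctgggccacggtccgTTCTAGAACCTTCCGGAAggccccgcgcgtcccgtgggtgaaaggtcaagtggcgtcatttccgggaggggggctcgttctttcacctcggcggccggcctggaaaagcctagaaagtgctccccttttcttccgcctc
The capitals hold 3 overlapping pairs in 1 run that begins 89 bases before the Hspe1 start. Of the 7 members with a promoter window in the table, 5 held an inverted pair in at least 1 window, namely Hspa1a, Hspa1b, Hsph1, Hspe1 and Hspd1. Over all windows 15.1% held one, a share by window and not by gene. The 5 are not independent, since Hspa1a and Hspa1b have nearly the same window and Hspe1 and Hspd1 share most of theirs. Hspa8, Hsp90aa1 and Hsp90ab1 are the members with no window in the table.

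Hspd1 probe set 1426351_at had 17774.5, 12576, 16976.5 and 19541 at 0, 4, 8 and 24 h on knockout-labelled arrays, against 14141, 15438, 22665 and 26334 on wild-type-labelled arrays. Both genotypes were highest at 24 h, but the knockout-labelled array was lowest at 4 h and the wild-type-labelled one at 0 h, and the genotypes overlapped. The change at 24 h was 0.14 in knockout-labelled and 0.90 in wild-type-labelled cells, a mean of 0.52 ± 0.26 (SE) (limma adjusted p = 0.314). Hspe1 probe set 1450668_s_at had 11669.7, 8539.6, 10886 and 17139 on knockout-labelled arrays, against 14488, 11883, 16462 and 19844 on wild-type-labelled arrays. Both genotypes were lowest at 4 h and highest at 24 h, and the knockout-labelled array was lower at each time, with differences of -0.31, -0.48, -0.60 and -0.21. The suffix of 1450668_s_at marks probes shared between transcripts of several genes.

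Hspe1 probe set 1422579_at had 2759.5, 2020.4, 2655 and 4533 on knockout-labelled arrays, against 3517, 2777, 4232 and 5937 on wild-type-labelled arrays. It too was lowest at 4 h and highest at 24 h in both genotypes, and it was lower on the knockout-labelled array at each time, with differences of -0.35, -0.46, -0.67 and -0.39. Its change at 24 h was 0.72 in knockout-labelled and 0.76 in wild-type-labelled cells, a mean of 0.74 ± 0.21 (SE) (limma adjusted p = 0.112), and that of 1450668_s_at was 0.50 ± 0.21 (SE) (adjusted p = 0.238). The genotypes overlapped for both probe sets.

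Hspa5 encodes BiP, which holds unfolded proteins in the endoplasmic reticulum and keeps the sensors of the unfolded protein response silent. Its promoter is known for endoplasmic reticulum stress elements (ERSE), and its window at chr2:34771840-34772139 on the plus strand (RefSeq, GRCm38.p6) is printed to set it beside the heat shock promoters above, with the one full match in capitals.
Hspa5: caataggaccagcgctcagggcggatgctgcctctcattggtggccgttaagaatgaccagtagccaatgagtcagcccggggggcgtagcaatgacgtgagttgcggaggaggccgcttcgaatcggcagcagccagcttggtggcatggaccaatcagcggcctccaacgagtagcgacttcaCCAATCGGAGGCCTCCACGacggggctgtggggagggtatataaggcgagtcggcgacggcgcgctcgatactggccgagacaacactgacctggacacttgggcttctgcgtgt
The motif searched was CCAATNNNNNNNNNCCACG on both strands, found in 0.119% of promoter windows, and its match begins 65 bases before the start. The shorter CCAAT, part of it, was found 4 times in this window and at least once in 37.4% of all windows. No inverted pair of heat shock units was found in it.

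Hspa5 probe set 1416064_a_at had 23947, 30352.5, 26643 and 23439 at 0, 4, 8 and 24 h on knockout-labelled arrays, against 17038, 35018, 32593 and 22466 on wild-type-labelled arrays. The wild-type-labelled values spanned the widest range, lowest at 0 h and highest at 4 h, and the knockout-labelled values lay between them. The change at 4 h was 0.34 in knockout-labelled and 1.04 in wild-type-labelled cells, a mean of 0.69 ± 0.27 (SE) (limma adjusted p = 0.33). Probe set 1427464_s_at, whose suffix marks probes shared between transcripts of several genes, had 13358, 14759, 13461 and 8757 on knockout-labelled arrays, against 7236, 13205, 14526 and 11959 on wild-type-labelled arrays. It too was lowest on the wild-type-labelled 0 h array, and its change at 4 h was 0.14 in knockout-labelled and 0.87 in wild-type-labelled cells (mean 0.51 ± 0.33 SE, limma adjusted p = 0.561).

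Between 4 and 8 h, 19 of the 20 probe sets were higher at 8 h on the mean of both genotypes, with a median of 0.50 on the log2 scale beside -0.01 over all tested probe sets. After quantile normalization 18 were higher (median 0.43) and after division by the array median 19 (median 0.57). limma called 0 members higher and 0 lower, and no probe set at all (0.0% in each direction). At an unadjusted p under 0.05, 5 member probe sets were higher and 0 lower, where 3.05% of all probe sets passed in either direction. The 5 were 1452318_a_at and 1427127_x_at of Hspa1b, with 1.14 ± 0.33 and 1.10 ± 0.33 (SE), 1425993_a_at of Hsph1 with 0.62 ± 0.20, 1420622_a_at of Hspa8 with 0.71 ± 0.27 and 1422579_at of Hspe1 with 0.50 ± 0.21. Every adjusted p among the members was 1.0.

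Between 8 and 24 h, 14 of the 20 were lower and 6 higher, with a median of -0.35 beside 0.00 over all tested probe sets, and limma again called 0 probe sets of the members or of the whole table (0.0% in each direction). At an unadjusted p under 0.05, 4 member probe sets were lower and 1 higher, where 8.84% of all passed in either direction. The 4 lower ones were those of Hspa1a and Hspa1b, with changes of -2.01 to -2.22 and limma adjusted p of 0.244 to 0.392, and the higher one was 1422579_at of Hspe1 with 0.63 ± 0.21 (SE, limma adjusted p = 0.507). The 4 to 8 h and 8 to 24 h comparisons share the 8 h arrays.

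The comparison of knockout-labelled with wild-type-labelled arrays at each time asks where the heat shock proteins differed with the Gfi1 label. More of them were lower than higher on knockout-labelled arrays after stimulation, with Hsph1, Hspe1, Dnajb1 and 1452318_a_at of Hspa1b lower at every time. At 0 h 10 probe sets were lower and 10 higher, with a median of -0.02, and 49.0% of all tested probe sets were lower. By gene, with 1 probe set each, the members' medians were -0.21, -0.35, -0.42 and -0.25 at 0, 4, 8 and 24 h. Over all tested genes they were 0.00, 0.00, -0.08 and 0.00. By gene the median was thus below 0 at 0 h too, and near that at 24 h. Genes with several probe sets weigh more in the counts by probe set. At 4, 8 and 24 h, 17, 19 and 17 of the 20 were lower, where 51.3%, 54.1% and 45.6% of all tested probe sets were, with medians of -0.43, -0.42 and -0.44 beside -0.02, -0.07 and 0.00 over all tested probe sets. After quantile normalization 14, 17 and 20 were lower at these times, where 53.3%, 53.9% and 52.2% of all were. The members' medians then were -0.44, -0.23 and -0.68, and relative to the median over all tested probe sets they were -0.39, -0.16 and -0.65. After division by the array median 19, 20 and 20 were lower, where 58.6%, 58.7% and 61.5% of all were. With that division the median over all tested probe sets became -0.15, -0.16 and -0.19, and relative to it the members' medians were -0.42, -0.34 and -0.52.

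The sign of several small differences depended on the scaling. For 1416064_a_at of Hspa5 the difference was -0.21, -0.29 and 0.06 at 4, 8 and 24 h on the deposited signals and 0.23, 0.06 and -0.20 after quantile normalization. For 1455789_x_at of Hspa8 it was -0.21, -0.22, -0.42 and 0.02 at 0, 4, 8 and 24 h, against 0.24, 0.20, 0.15 and -0.35 after quantile normalization, so its sign turned at all 4 times. Another probe set of Hspa8, 1420623_x_at, had -0.21 at 0 h and 0.07 after quantile normalization, and 1420622_a_at had 0.06 and 0.01 at 4 and 8 h and -0.08 and -0.07 after division by the array median.

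By the rule of at least 2-fold on single arrays, 1 of the 20 probe sets was lower at 0 h, where 7.0% of all tested probe sets were, 5 at 4 h (6.79% of all), 0 at 8 h (6.77%) and 4 at 24 h (4.86%). The count at 4 h was 3 with log2 of signal plus floor, and that at 24 h was 2 with log2 of signal plus floor or a floor at the 60th percentile. The share of all tested probe sets was not computed for these settings. No member was 2-fold higher at any time, where 7.48%, 10.3%, 10.4% and 8.36% of all probe sets were. The one at 0 h was 1425993_a_at of Hsph1. At 4 h they were the 3 probe sets of Hspa1b, at -1.40, -1.20 and -1.66, with 1423566_a_at of Hsph1 at -1.03 and 1416756_at of Dnajb1 at -1.05. At 24 h there were 2 probe sets of Hspa1b, at -1.37 and -1.15, 1423566_a_at of Hsph1 at -1.69 and 1431182_at of Hspa8 at -1.11. Since the rule is by probe set, Hspa1b counts up to 3 times, and by gene, with the strongest probe set of each, 1, 1, 0 and 1 of 9 were lower at 0, 4, 8 and 24 h, where 6.75%, 6.56%, 6.66% and 5.06% of all tested genes were.

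No member was 2-fold different in 1 direction at all 4 times, where 1.59% of all probe sets were higher and 0.153% lower (1.86% and 0.166% of all genes). In any size, 8 of the 20 probe sets were lower at all 4 times (13.7% of all) and 0 were higher (12.0%). These were both probe sets of Hsph1, Hspe1 and Dnajb1, with 1452318_a_at of Hspa1b and 1420623_x_at of Hspa8, the last of which was not lower at 0 h after quantile normalization. By gene this is 4 of 9, where 14.3% of all tested genes were. Hspa8 is in the count by probe set and not by gene, because its strongest probe set was 0.02 higher at 24 h.

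**Figure D3:**
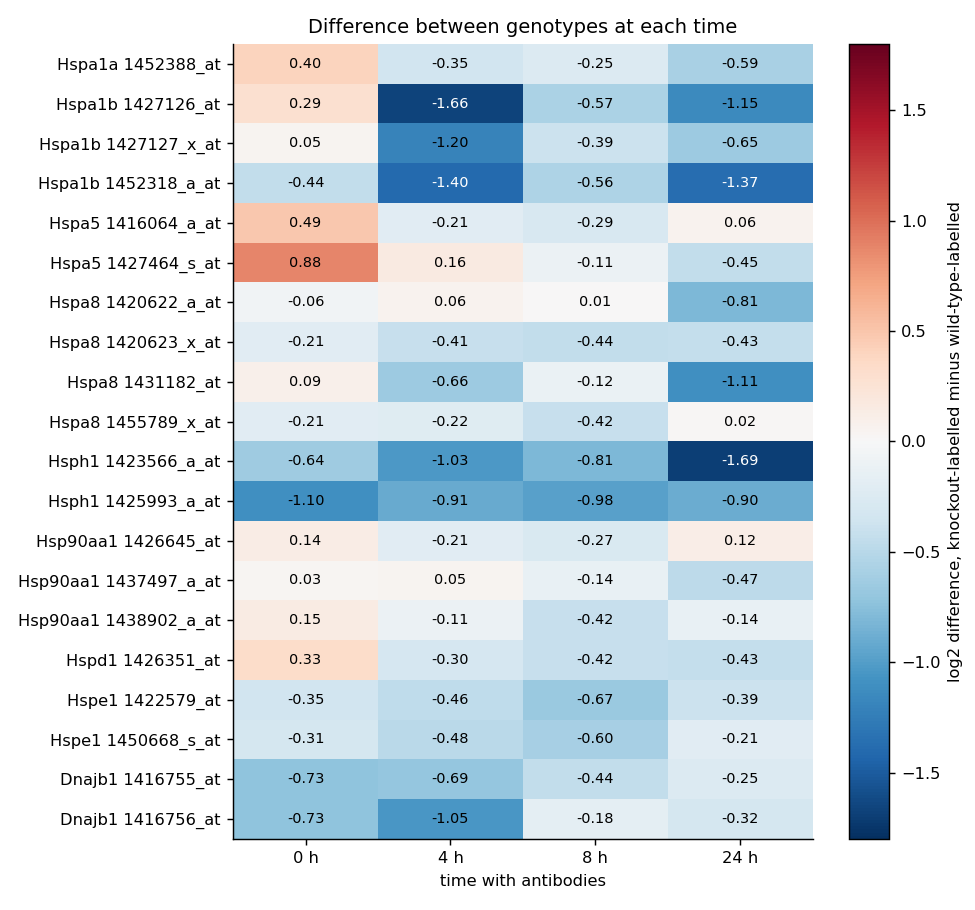
Log2 difference, knockout-labelled minus wild-type-labelled, of each heat shock protein probe set (vertical axis) at 0, 4, 8 and 24 h (horizontal axis), with 1 array per genotype and time, blue for lower and red for higher in knockout-labelled cells. Hsph1 is blue in every column, from -0.64 to -1.69, Hspa1b is deepest at 4 h (-1.20 to -1.66), and Hspa5 is red at 0 h (0.49 and 0.88).

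The change from 0 h in knockout-labelled cells minus that in wild-type-labelled cells gives the difference in response, which rests on 4 arrays with no replicate and was not tested. The response was lower in knockout-labelled cells for most probe sets, 16 of 20 at 4 h, 16 at 8 h and 15 at 24 h, where 47.0%, 51.8% and 46.4% of all tested probe sets were lower, and the medians were -0.33, -0.26 and -0.46 beside 0.02, -0.03 and 0.05 over all tested probe sets. By at least 2-fold it was lower for 2 probe sets at 4 h, both of Hspa1b (-1.95 and -1.26), where 6.13% of all were. At 8 h it was 0 (8.14% of all) and at 24 h 4, where 12.7% of all were. The count at 24 h was 8 after division by the array median and 2 with log2 of signal plus floor. For these settings the share of all tested probe sets was not computed. The division also moved the median genotype difference over all tested probe sets at 24 h from 0.00 to -0.19, while at 0 h it stayed at 0.00. Those 4 were 1427126_at of Hspa1b (-1.43), 1427464_s_at of Hspa5 (-1.33), 1431182_at of Hspa8 (-1.20) and 1423566_a_at of Hsph1 (-1.04). On the deposited signals none of the 20 was 2-fold higher, where 7.67%, 10% and 15.5% of all probe sets were at 4, 8 and 24 h. The response comparisons at the 3 times share the 0 h arrays.

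The other genes of the chaperone network were taken as lists, with 1 probe set per gene. The mitochondrial list shares Hspa9, Grpel1, Trap1 and Dnaja3 with the HSP70, HSP90 and J-domain lists, so these lists are not independent. Among 15 genes of endoplasmic reticulum folding, 8 were at least 2-fold higher on the knockout-labelled array at 0 h, 9 at 4 h, 2 at 8 h and 1 at 24 h, with 1 lower at 24 h (Herpud1, which helps clear unfolded proteins, at -1.09). The list's median difference was 1.04, 1.15, 0.66 and 0.12, beside 0.00, 0.00, -0.08 and 0.00 over all tested genes. By gene, 8.08%, 11.8%, 10.7% and 9.18% of all tested genes were 2-fold higher at these times, and 5.06% were lower at 24 h. After quantile normalization and after division by the array median the list's median at 24 h was 0.11 and -0.16, and at the other times it stayed between 0.58 and 1.14. Granulocyte markers were higher on the same knockout-labelled arrays, with median differences of 3.4, 4.34, 4.34 and 1.35 at 0, 4, 8 and 24 h. Those of monocyte markers were 0.98, 1.72, 3.17 and 2.35. The part of these cells in the list's differences was not tested.

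Sdf2l1, a partner of BiP, had 4167, 2974, 1996 and 1725 on knockout-labelled arrays, against 948, 371, 626 and 2089.5 on wild-type-labelled arrays. The knockout-labelled array was higher at 0, 4 and 8 h, by 2.14, 3.0 and 1.67 on the log2 scale, and lower at 24 h. Creld2, a stress-induced protein of the same compartment, differed by 1.64, 1.90 and 1.12 at 0, 4 and 8 h. The other genes past 2-fold at 0 h were Atf6 and Xbp1, factors of the unfolded protein response, at 1.56 and 1.04, the disulfide isomerases P4hb and Pdia6 at 1.46 and 1.10, the secreted stress protein Manf at 1.08 and the calcium-binding chaperone Calr at 1.05. At 4 h they were Pdia4 at 1.87, P4hb at 1.39, Manf at 1.33, Calr at 1.32, Pdia3 at 1.22, Pdia6 at 1.15 and Atf6 at 1.0, and at 24 h Ero1a at 1.76. Hyou1, an HSP110 of this compartment, had the lowest difference of the list at 0 h (-0.21) and at 4 h (0.14), and Herpud1 had it at 8 h (-0.55). Hspa5 itself differed by 0.49, -0.21, -0.29 and 0.06 at 0, 4, 8 and 24 h for 1416064_a_at. For 1427464_s_at it differed by 0.88, 0.16, -0.11 and -0.45. By neither probe set was Hspa5 among the genes of its compartment that were 2-fold higher.

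Ero1a, the oxidase that passes disulfide bonds to protein disulfide isomerase, was the one gene of these lists that limma called. It had 2151, 3867, 3326 and 11756 on knockout-labelled arrays, against 1237, 2061, 1882 and 3475 on wild-type-labelled arrays. The 24 h array was the highest of each genotype, and the knockout-labelled array was higher at each time. It rose by 1.97 ± 0.29 (SE) on the log2 scale at 24 h (limma adjusted p = 0.0234). The call was lost without the filter (adjusted p = 0.149 in limma), without the genotype term (0.25) and on leaving out any array but the wild-type-labelled 24 h one (0.062 to 0.178), where the changes were 1.51 to 2.15. Without the wild-type-labelled 24 h array the change was 2.43 (limma adjusted p = 0.0147).

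Of the other HSP70 genes and exchange factors, 13 were tested and 0 were called at 4 h, where 0.804% of all tested genes were called higher and 0.627% lower, 0 at 8 h, where 1.18% and 1.25% were, and 0 at 24 h, where 1.49% and 2.48% were. Their medians were 0.12, 0.11 and -0.03 at 4, 8 and 24 h beside -0.10, -0.11 and -0.08 over all tested genes. Bag2, a cochaperone that inhibits ubiquitination by CHIP, had 867, 147, 343 and 355 on knockout-labelled arrays, against 515.5, 129, 325 and 539 on wild-type-labelled arrays. Its 4 h array was the lowest of each genotype, under the floor in wild-type-labelled cells, and its change of -2.21 ± 0.38 (SE) missed the threshold (limma adjusted p = 0.0571). Hspa9, the mitochondrial HSP70, had mean changes of 0.77, 1.04 and 0.95 at 4, 8 and 24 h (adjusted p of 0.138 to 0.341), higher in both genotypes. Bag3, another stress-inducible exchange factor, had a change of -1.29 ± 0.33 (SE) at 24 h (limma adjusted p = 0.0896). Both of its 24 h signals, 68.4 on the knockout-labelled and 29.8 on the wild-type-labelled array, were under the floor, so this change is a bound.

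In the genotype comparison of these 13 genes, 1 was 2-fold higher on the knockout-labelled array at 0 h (Bag3 at 1.29) and 1 at 8 h (Hspa2, a testis HSP70, at 1.01). Of the same genes 1 was 2-fold lower at 4 h (Bag5 at -1.31) and 1 at 24 h (the exchange factor Hspbp1 at -1.10). Of all tested genes, 8.08% and 10.7% were higher at 0 and 8 h, and 6.56% and 5.06% were lower at 4 and 24 h. The list's median was 0.37, -0.32, -0.12 and -0.55 at 0, 4, 8 and 24 h. The others furthest from 0 at a time were St13 at -0.27 at 0 h, Hspa2 at 0.68 at 4 h, and Hspa4l, an HSP110, at -0.73 at 8 h and 0.88 at 24 h. Hspa2 was under the floor on all 4 wild-type-labelled arrays, at 131.8, 72.0, 110.2 and 130.1. Its differences of 0.68 and 1.01 are therefore bounds, and it passed the filter on low signals only through its knockout-labelled arrays.

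None of 17 other J-domain, 12 HSP90 family and cochaperone and 11 mitochondrial folding and proteolysis genes was called at any of these times. Nor was 1 small heat shock protein (Hspb1) or any of 3 genes from a list of heat shock factors and stress-inducible targets (Sqstm1, Hmox1 and Hsbp1). The closest was Dnajb9, a J-domain partner of BiP, at -1.51 ± 0.32 (SE) at 24 h (limma adjusted p = 0.0548). Fkbp5, a cochaperone of HSP90, had mean changes of -1.02, -0.69 and -1.09 at 4, 8 and 24 h (limma adjusted p of 0.124 to 0.297), and Unc45a, another, had 0.28, 0.13 and 0.57. At 8 and 24 h the Unc45a signal was above its 0 h value in knockout-labelled cells and below it in wild-type-labelled cells. Sqstm1, the autophagy receptor p62, had 1.44, 0.97 and 0.63 (limma adjusted p of 0.105 to 0.292). Hspb1, HSP27, had -0.23, -0.16 and 0.03. Its knockout-labelled 8 h signal (98.2) was under the floor, and the genotypes moved in opposite directions at 24 h.

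The further changes furthest from 0 within a list were not called. In the J-domain list they were Dnaja2 at 0.66 and Dnajc3 at -0.84 at 4 h, Dnajb5 at 1.03 and Dnajc3 at -1.13 at 8 h, and Dnajb12 at 0.70 at 24 h. In the mitochondrial list the protease Htra2 had -1.04 ± 0.66 (SE) at 4 h and -1.12 ± 0.66 at 24 h, and Spg7, a subunit of a membrane protease, had -0.70 at 8 h. In the endoplasmic reticulum list Sdf2l1 had -0.92 and -0.83 at 4 and 8 h, Ero1a had 0.79 and 0.62 at these times, and Herpud1 had -1.32 at 24 h. Among the stress-inducible targets Hmox1 had mean changes of -0.54 and -0.74 at 4 and 8 h (SE 0.69), but the genotypes moved in opposite directions. Its signals at 0, 4 and 8 h were 608.2, 938.8 and 756.5 on knockout-labelled arrays, against 497.1, 153.1 and 142.7 on wild-type-labelled arrays. Hsbp1, which binds heat shock factor 1, had -0.22 at 24 h.

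In the genotype comparison the J-domain list had a median of -0.59 at 4 h beside 0.00 over all tested genes. At that time 2 of its 17 genes were 2-fold higher, Dnajc10 at 1.55 and Dnajc3 at 1.10, where 11.8% of all tested genes were, and 3 were lower, Dnajb4, Dnaja4 and Dnajb2 at -1.09, -1.04 and -1.04, where 6.56% were. At 0 h Dnajc10 had 1.06 and Dnaja4 -1.15, at 8 h Dnajc10 had 1.95, and at 24 h Dnajb2 had 1.05. Of all tested genes, 8.08%, 10.7% and 9.18% were 2-fold higher at 0, 8 and 24 h, and 6.75% were lower at 0 h. The lowest of the list at 8 and 24 h was Dnajc2, at -0.81 and -0.83.

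Of the 12 HSP90 genes and cochaperones, 1 was 2-fold higher on the knockout-labelled array, at 4 h, and 1 each was lower at 0, 4 and 24 h. The higher one was Hsp90b1, the HSP90 of the endoplasmic reticulum, at 1.27. The lower ones were Unc45a at -1.21 at 0 h and -1.19 at 4 h, and Ahsa1, which speeds the ATP hydrolysis of HSP90, at -1.06 at 24 h. Of all tested genes, 11.8% were 2-fold higher at 4 h, and 6.75%, 6.56% and 5.06% were lower at 0, 4 and 24 h. Short of 2-fold, Fkbp5 had 0.81 at 0 h, Tomm34 -0.73 and Sugt1 0.74 at 8 h, and Sugt1 0.26 at 24 h. The medians at 0, 4, 8 and 24 h were -0.09, -0.07, -0.19 and -0.46 for the HSP90 list and 0.53, -0.08, -0.34 and -0.33 for the mitochondrial list.

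Of the 11 mitochondrial genes, 1 was 2-fold higher at 4 h and at 8 h, and 2 were lower at 24 h. The higher one was Htra2, a protease between the mitochondrial membranes, which differed by 0.98, 2.44 and 1.93 at 0, 4 and 8 h. The lower ones were Clpx and Clpp, the unfoldase and the peptidase of a matrix protease, at -1.18 and -1.02. Of all tested genes, 11.8% and 10.7% were 2-fold higher at 4 and 8 h, and 5.06% were lower at 24 h. Clpx at 4 h (-0.80), Afg3l2 at 8 h (-0.67) and Spg7 at 0 h (0.05) and 24 h (0.87) were the others furthest from 0. Hmox1, the haem oxygenase, differed by 0.29, 2.62, 2.41 and 3.39 at 0, 4, 8 and 24 h, over the same arrays on which monocyte markers were higher, and their part in this was not tested. Sqstm1 differed by -0.61 at 0 h and 0.29 at 8 h, Hsbp1 by 0.14 at 4 and 24 h, and Hspb1 by -0.43, -0.28, -0.63 and 0.67 at 0, 4, 8 and 24 h. The knockout-labelled 8 h signal of Hspb1 (98.2) was under the floor, so its -0.63 is a bound.

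**Figure D4:**
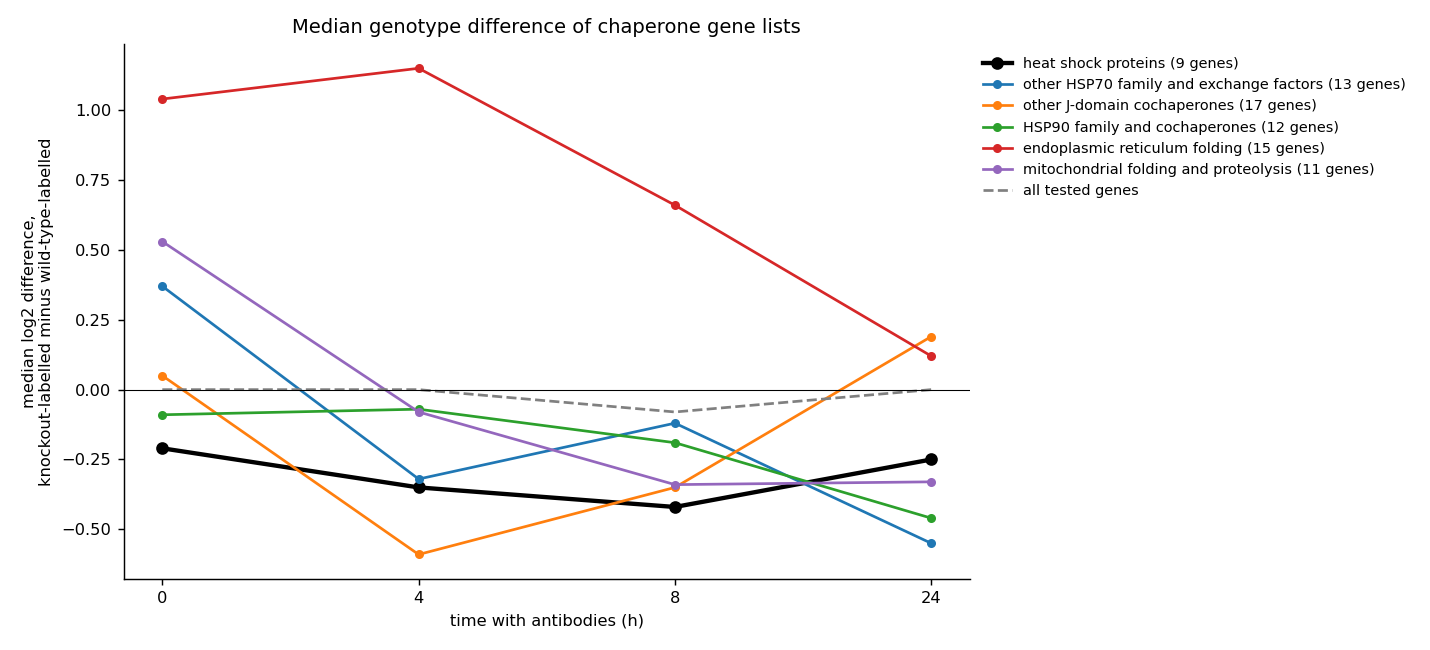
Median log2 difference, knockout-labelled minus wild-type-labelled (vertical axis), of the heat shock protein genes (black) and of related chaperone lists of at least 10 tested genes (colours) at 0, 4, 8 and 24 h (horizontal axis, evenly spaced), with 1 probe set per gene. The dashed line is the median over all tested genes. Some genes stand in more than 1 list. The endoplasmic reticulum list lies at 1.04, 1.15 and 0.66 at 0, 4 and 8 h and at 0.12 at 24 h, and the heat shock protein genes lie at -0.21, -0.35, -0.42 and -0.25.

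Members were also compared with each other and with all tested genes by the Pearson correlation of their log2 signals over the 8 arrays, as a description, since the points share genotype, time and cell makeup. Hspa1a and Hspa1b had r = 0.916 with each other, Hsph1 and Dnajb1 had 0.886, Hsp90aa1 and Hspd1 had 0.929, and Hspe1 was closest to Hspd1 at 0.825. The member closest to Hspa5 was Hspa8, at 0.379. Among all tested genes, the closest to Hspa1a were Nudt3 (0.946), Lemd2 (0.934) and Zfp91 (0.923), and the closest to Hspa1b were Sppl3 (0.951), Plekho1 (0.948) and Trim44 (0.925). Those closest to Hsph1 were Evl (0.976), Fgf13 (0.965) and Rbm26 (0.962), and those closest to Dnajb1 were Zfp955b (0.957), Zkscan14 (0.955) and Stx1a (0.949). Hsp90aa1 was closest to Serbp1 (0.953), Ropn1 (0.947) and Pithd1 (0.942), and Hspa8 to Fa2h (0.956), Slc29a3 (0.952) and Luc7l3 (0.945). Hspd1 was closest to Gadd45gip1 (0.970), Prdx3 (0.965) and Mrpl47 (0.962) and Hspe1 to Ube3a (0.959), Elp2 (0.955) and Pigh (0.955). Hspa5 was closest to Map2k3 (0.964), Mapk6 (0.961) and Srpr (0.951).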

How the data were processed

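The deposited values are linear signal intensities of 22690 probe sets on each of 8 arrays, made by the authors with GCOS 1.4 and MAS5 per the submitters' processing notes. MAS5 scales each array to a common trimmed mean, and the trimmed means in the files were 1000.4 to 1000.5. No 2 arrays were identical, with Pearson correlations of 0.836 to 0.972 between their log2 signals.

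After 64 control probe sets were left out, the platform annotation gave 1 symbol for 20380 probe sets, more than 1 for 691 and no symbol for 1555. The floor of 141.88 (7.15 on the log2 scale) is the median over arrays of the 40th percentile of signal. Signals below it were set to it, and the 15062 probe sets above it on at least 2 arrays were tested. limma 3.58.1 (R 4.3.3) fitted time and genotype, with a variance trend and 3 residual degrees of freedom (median prior 3.88), and p-values were adjusted by Benjamini-Hochberg over all tested probe sets. A call needed an adjusted p under 0.05 and a 2-fold change. The genotype term acts as a replicate block over the 4 times, as the arrays of a genotype carry 1 source number. Genotype and response differences were taken by size, since each genotype and time has 1 array, and the number of arrays limits the precision of every value.

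By gene, the probe set with the highest mean log2 signal was used, which left 8457 tested genes. The fit was tested on simulated data. The text names every member, each called gene of the lists of related chaperone genes with those furthest from 0 in each direction against 0 h and between genotypes (those between 4, 8 and 24 h are not printed), the list genes past 2-fold between genotypes, and the 3 genes with the highest correlation with each member. Members and lists were chosen with earlier results of these data known. Promoter windows came from RefSeq (GRCm38.p6), and 7 of the 10 members had one. Alternatives changed the scaling, the floor, the filter, the log scale, the variance trend, the genotype term, the summary per gene, the fold threshold and the arrays used. Figures were drawn with Python 3.11.15 and matplotlib 3.10.9.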

Additional observations from a re-analysis of the deposited data

Results flagged for a closer look

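In 7 cases the knockout-labelled and the wild-type-labelled array moved in opposite directions from 0 h for the strongest probe set of a member, each time lower in knockout-labelled and higher in wild-type-labelled cells. The cases come from 9 genes at 4, 8 and 24 h, and the share of all tested genes that moved in opposite directions was not computed. With 1 array per genotype and time these differences were not tested. At 4 h Hsp90aa1, the cytosolic HSP90, changed by -0.21 in knockout-labelled and 0.06 in wild-type-labelled cells on the log2 scale, a difference of -0.26. Hspd1, mitochondrial HSP60, had -0.50 and 0.13 at 4 h, a difference of -0.63. At 8 h the changes in knockout-labelled and wild-type-labelled cells were -0.32 and 0.33 for Hspa1a (difference -0.65), -0.09 and 0.48 for Hsp90aa1 (difference -0.57), -0.07 and 0.68 for Hspd1 (difference -0.75), and -0.10 and 0.18 for Hspe1, the HSP10 partner of HSP60 (difference -0.28). At 24 h Hspa5, which encodes BiP, had -0.03 and 0.40, a difference of -0.43. All of them share the 0 h arrays, and none reaches 2-fold. Some rest on very small changes, such as -0.03, 0.06, -0.07 and -0.09, whose direction is uncertain.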

How the results depend on the processing

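The 3 calls at 24 h became 0 without the filter on low signals, 0 with no replicate block (no genotype term), and 0 to 3 on leaving out 1 array, where the lone array of a time is assumed to vary as the others do. The remaining settings gave 2 to 4 calls. At 4 and 8 h, and between 4, 8 and 24 h, no setting moved the members' count of 0. Over all probe sets the calls at 4, 8 and 24 h were 165, 293 and 519, against 16, 13 and 17 without the filter, 75, 116 and 166 with a floor at the 60th percentile, 68, 98 and 91 with no replicate block, and 0 to 266, 0 to 654 and 0 to 1123 on leaving out 1 array.

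Division by the array median gave 1 probe set 2-fold lower on the knockout-labelled array at 8 h and 1 at all 4 times, and 1 and 8 for the response at 8 and 24 h. A floor at the 60th percentile gave 2 at 24 h, and log2 of signal plus floor gave 3 at 4 h, 2 at 24 h and 2 for the response at 24 h. At 1.5-fold, 1 was higher at 0 h, 4, 8, 4 and 8 were lower at 0, 4, 8 and 24 h, 2 at all 4 times, and 8, 5 and 9 for the response at 4, 8 and 24 h. At 3-fold, 0, 1 and 1 were lower at 0, 4 and 24 h, and 1 and 0 for the response at 4 and 24 h. For these settings the share of all tested probe sets was not computed, so the counts cannot be set beside a background. limma with time as a block called 1 probe set lower on knockout-labelled arrays, 1423566_a_at of Hsph1, where it called 0.544% of all lower and 2.66% higher. This fit takes the 4 times of 1 source per genotype as replicates, so it does not test genotype. The other Hsph1 probe set, 1425993_a_at, had the smaller limma adjusted p (0.0187, against 0.0476) but was 1.96-fold lower, short of 2-fold.

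Small changes that were not called turned sign. Quantile normalization gave -0.136 at 4 h and -0.041 at 24 h for Hspa8, -0.079 at 8 h and -0.039 at 24 h for Hsp90aa1, -0.12 at 8 h for Hspe1 and -0.101 at 24 h for Hspa5. Division by the array median gave 0.108 at 4 h for Hsp90aa1 and 0.022 at 8 h for Hsph1. The median over probe sets gave -0.258 at 4 h and -0.078 at 24 h for Hspa8. On leaving out 1 array, the change at 4 h was -0.542 to 0.169 for Hspd1 and -0.264 to 0.112 for Hsp90aa1, above 0 without the knockout-labelled 0 h array. At 8 h it was -0.048 to 0.663 for Hspd1, -0.09 to 0.174 for Hspe1, -0.26 to 0.412 for Hspa1b and -0.396 to 0.402 for Hspa1a, and at 24 h -0.134 to 0.502 for Hspa5. These 5 were below 0 without the wild-type-labelled 0 h array, Hspe1 (-0.09) and Hspa1a (-0.034) also without the wild-type-labelled 8 h array, and Hspa1b (-0.18) without the knockout-labelled 8 h array. The cause of these shifts was not tested.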
